A study of Mus musculus with 165 samples.

Results

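A group of 10 transcripts that encode feedback inhibitors of the RAS-ERK pathway was followed through the differentiation of PUER cells, namely the phosphatase genes Dusp1, Dusp2, Dusp4, Dusp5 and Dusp6, the Sprouty genes Spry1, Spry2 and Spry4, and the Sprouty-related genes Spred1 and Spred2. They were chosen by symbol and make up 10 of the 36255 genes in the deposited table. These members and the pathway gene lists below were chosen with earlier results of these data known. 9 of the 10 reached a normalized count of 5 in 1 or more libraries and were tested. The exception was Spry4, which never exceeded 4 reads.

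PUER is a myeloid progenitor line from a mouse that lacks PU.1 (Spi1-/-), a transcription factor of the macrophage and neutrophil lineages. All cells carry PU.1 joined to the hormone-binding part of the estrogen receptor, which 4-hydroxytamoxifen (OHT) activates. Undifferentiated cells were kept in IL3 at 5 ng/mL without OHT (3 libraries) and are the start of both courses. In the macrophage course, IL3-OHT, cells stayed in 5 ng/mL IL3 and received 200 nM OHT. In the neutrophil course, IL3 was replaced by 10 ng/mL GCSF for 48 h (GCSF 0h, 3 libraries), and 100 nM OHT was then added (GCSF-OHT). Bulk polyA RNA was sequenced at 27 time points from 1h to 168h of OHT, in 81 IL3-OHT and 78 GCSF-OHT libraries, with 3 libraries a group except GCSF-OHT 96h, 112h and 152h, which had 2. No group received the solvent of OHT alone, and because the OHT dose differs between the courses, a difference between them cannot be assigned to the cytokine, the pre-treatment or the dose. Each time point was grown in a plate of its own, so that time and plate cannot be told apart. Cells were detached with trypsin at all times after 24h, and part of the medium was replaced with fresh OHT at 40h, 88h and 136h.

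In this pathway a cytokine or growth factor receptor loads RAS with GTP, RAS recruits RAF, and the kinases MEK and ERK are phosphorylated in turn. Active ERK enters the nucleus and induces immediate early genes such as Fos and Egr1, and with them the genes of its own inhibitors. The products of Dusp6, in the cytoplasm, and Dusp5, in the nucleus, remove phosphate from ERK with high selectivity. The nuclear phosphatases encoded by Dusp1, Dusp2 and Dusp4 act on ERK and also on the stress kinases JNK and p38. Sprouty and SPRED proteins act further up, at the membrane, and SPRED proteins bring the RAS GTPase-activating protein neurofibromin to RAS. Because their mRNAs follow ERK activity and decay fast, several of these genes are commonly read as markers of ERK signalling. Transcript levels were measured here, and neither phosphorylated ERK nor any protein was.

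The libraries held 14600246 to 33147945 reads on genes (median 21960878). A normalized count is a read count divided by the size factor of its library. With 1 read worth 0.652 to 1.84, 3 reads, the smallest number taken as told from 0, corresponded to 1.96 to 5.51, a limit that covers counting error only. Libraries of one group differed by more than counting error (chi-square per gene of 2.29 to 73.2 over 162 pairs, where counting error alone gives 1). Spi1, the gene of PU.1, was measured at 4482 to 13387 throughout. Transgene and endogenous reads were not separated, so this does not check the deleted allele. Markers of monocytes and macrophages summed to 17265 to 35903 in IL3-OHT and 19906 to 31702 in GCSF-OHT, and neutrophil markers summed to 204041 to 452889 and 445676 to 971627. In undifferentiated cells the sums were 23824.5 to 26847 and 337679 to 344785. Both lie within the IL3-OHT ranges, so neither sum separates IL3-OHT from undifferentiated cells. Differences below are log2 fold changes of normalized counts + 1 from limma, with the standard error (SE) and the Benjamini-Hochberg adjusted p over all genes tested. A gene was called when the adjusted p was under 0.05 and the log2 fold change exceeded 0.58 in size. In bulk RNA, fewer cells of a type and less RNA per cell cannot be told apart.

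Before differentiation, Dusp6 was the most abundant of the 10 genes once levels were set per length. Its normalized count per kilobase of the longest coding transcript was 2127 (2110 to 2151 over 3 libraries). Dusp5 followed at 1603 per kilobase (1531 to 1699) and Dusp1 at 1389 (1274 to 1470). Spred2 at 418, Spry2 at 381 and Dusp4 at 246 per kilobase formed the middle of the order. Spred1 at 199 and Spry1 at 163.3 per kilobase came next, then Dusp2 at 21.4 (14.6 to 33.5), and no 2 neighbours in this order overlapped among the 3 libraries. Dusp4, which like Dusp5 acts in the nucleus, was thus measured at a lower level per length than the cytoplasmic Dusp6 in every library.

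Spry4 was close to undetected. Its normalized counts were 3.93, 0 and 1.18 in the undifferentiated libraries. Reads were seen in 16 of 81 IL3-OHT libraries, the highest at 3.82, and in 4 of 78 GCSF-OHT libraries, the highest at 2.04. With no more than 4 reads in a library, no change of Spry4 was detectable at this depth. In the same cells Spry1 and Spry2 had reads in all libraries.

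**Figure D1:**
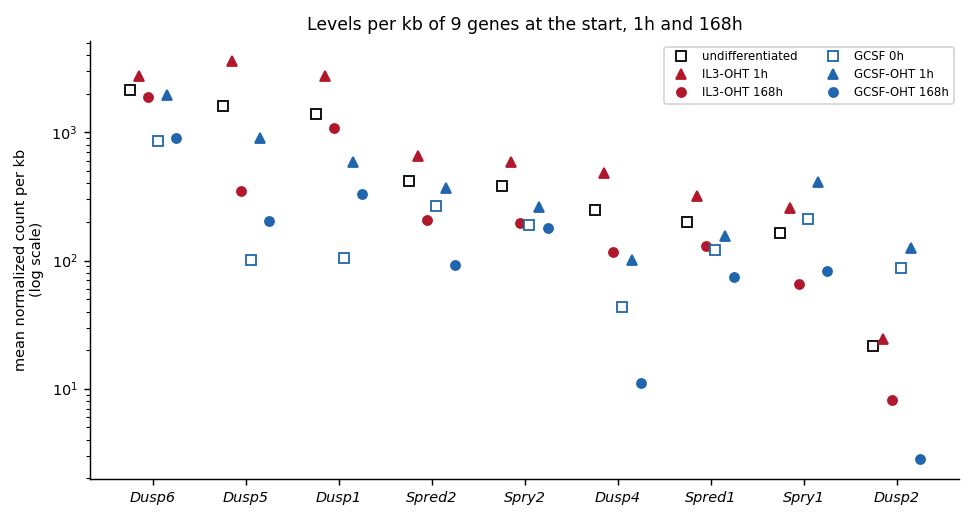
Normalized count per kilobase of the longest coding transcript (log axis) for each gene in the undifferentiated, GCSF 0h, 1h and 168h groups. Each symbol is the mean of a group, and single libraries are not drawn. Dusp6 had the highest mean in every group shown except IL3-OHT 1h, where Dusp5 led at 3628 and Dusp1 and Dusp6 lay at 2746 and 2733 with overlapping libraries.

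The order changed with the culture. After 48 h of GCSF, Dusp6 remained first at 856 per kilobase, and Spred2 was second at 269. Spry1 (210) and Spry2 (189.4) came before Spred1 (120.9), Dusp1 (104.3) and Dusp5 (101.5), the last 2 with overlapping libraries. Dusp2 (87.1) and Dusp4 (43.2) were lowest. At 168h of IL3-OHT the 3 leading genes were again Dusp6 (1880), Dusp1 (1088) and Dusp5 (351), and at 168h of GCSF-OHT they were Dusp6 (903), Dusp1 (333) and Dusp5 (203.02). Dusp4 stood at 11.04 and Dusp2 at 2.83 per kilobase at the end of the GCSF course.

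After 48 h with GCSF in place of IL3, and before any OHT, most of these transcripts were lower than in undifferentiated cells. Loss of IL3, addition of GCSF and the washing that the paper describes for these cells came together and cannot be told apart. The paper does not state how long the undifferentiated cells had been in plates at harvest. Time in culture may therefore differ too, here and between undifferentiated cells and 1h of IL3-OHT. Among the members, the nuclear phosphatases Dusp5 and Dusp1 fell most. Dusp5 measured 4203, 3787 and 3904 in the undifferentiated libraries and 281, 232 and 240 at GCSF 0h, a 15.8-fold fall (log2 difference −3.98, SE 0.08). Dusp1 measured 2834, 2536 and 2925 before and 218.1, 216.03 and 188.3 after GCSF, a 13.3-fold fall (−3.73, SE 0.14). The groups did not come near each other for either gene. Dusp4 went from 705, 645 and 670 to 132.2, 100.9 and 122.1 (−2.51, SE 0.20), and Dusp6 from 5929, 5900 and 6014 to 2772, 2290 and 2116 (−1.32, SE 0.07). Smaller falls were measured for Spry2 (−1.01), Spred1 (−0.72) and Spred2 (−0.64). Dusp2, an inducible nuclear phosphatase of activated leukocytes, moved the other way. It had 26.2, 54.2 and 23.6 in undifferentiated cells and 151, 128 and 144 after GCSF, a 4.25-fold rise (2.09, SE 0.42, adjusted p = 6.9e-06 by limma). Spry1 had 482, 427 and 450 before and 596, 592 and 561 after, without overlap, and its difference of 0.37 (SE 0.12) did not reach the fold limit. In all, 1 of 9 members rose and 7 fell, with a median of −1.01 against −0.09 over all genes. GCSF pre-treatment called 33.7% of the 17414 genes in either direction, so a call by itself was common here. In the same comparison 9 of 15 neutrophil markers were higher and 2 lower (median 0.76), 3 of 11 monocyte and macrophage markers were higher and 5 lower (−0.66), 3 of 5 progenitor markers were lower (−1.69) and 4 of 7 harvest and heat stress genes were lower (−0.60). Their part in the members' values was not tested.

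The phosphatase courses are plotted for every library, and they show the fall under GCSF, the maximum at 1h and a later step of Dusp1.

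**Figure D2:**
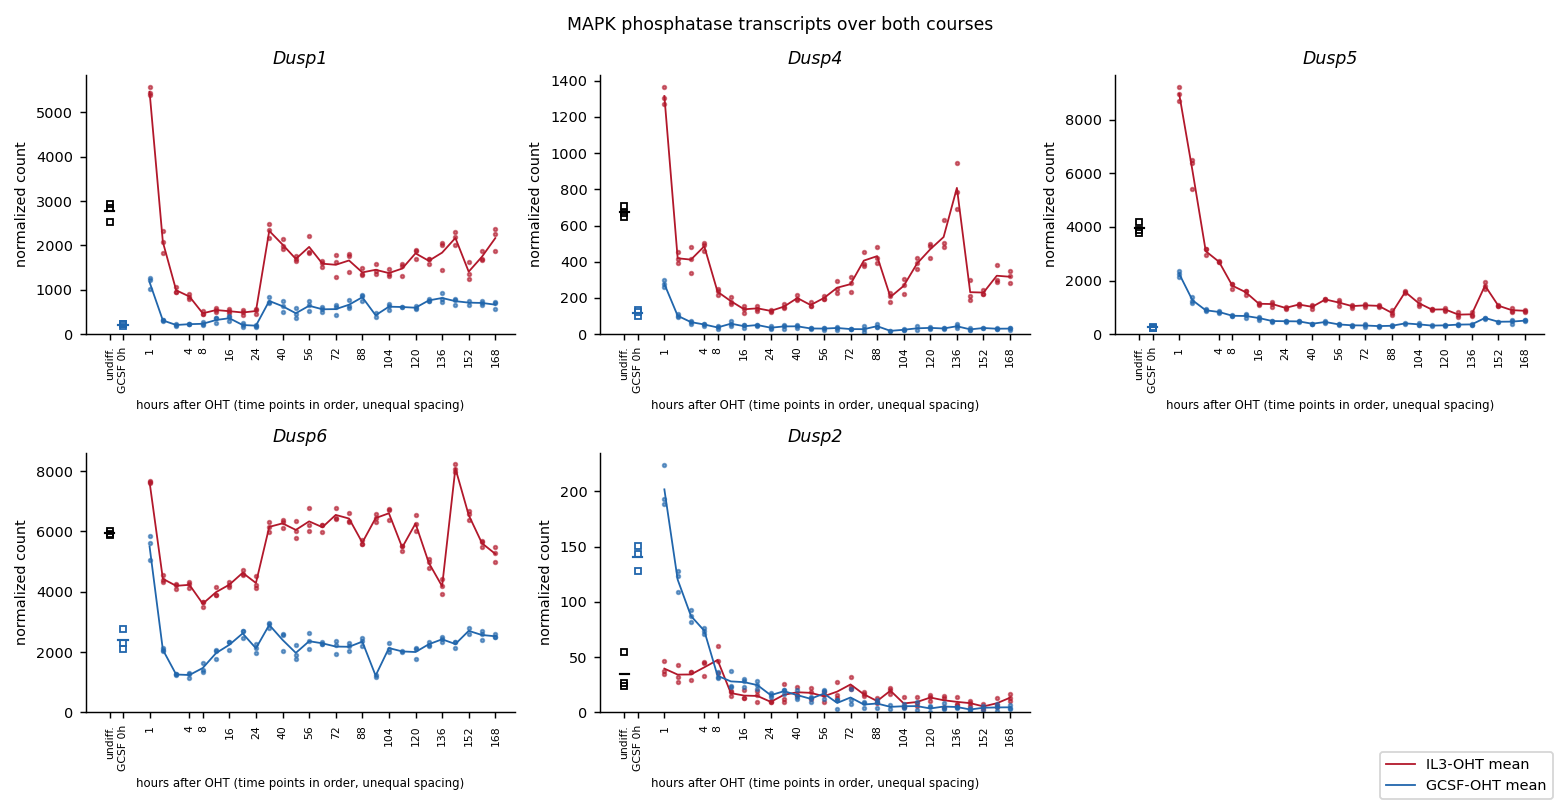
Normalized counts of Dusp1, Dusp4, Dusp5, Dusp6 and Dusp2 in each library (points) with group means (lines) for IL3-OHT and GCSF-OHT from 1h to 168h, and as open squares with a bar for the mean, the undifferentiated and GCSF 0h libraries. Time points are drawn in order and not to scale. Dusp1 peaked at 1h in both courses (means 5465 and 1171) and stepped up between 24h and 32h, and Dusp4 in IL3-OHT climbed to 808 at 136h before it stood at 232 at 144h.

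The first hour after OHT was the time of highest expression for most of the members. Over the 27 time points, the mean peaked at 1h for Dusp1, Dusp4, Dusp5, Spry1, Spry2 and Spred2 in IL3-OHT, and for all 9 detected genes in GCSF-OHT. In IL3, Dusp5 measured 8701, 9241 and 8978 at 1h, all above the 3 undifferentiated libraries (log2 difference 1.18, SE 0.08). Dusp1 measured 5385, 5582 and 5428 (0.99, SE 0.14) and Dusp4 1273, 1367 and 1307 (0.97, SE 0.20), each without overlap with the start. Spred1 (0.69), Spry1 (0.65), Spred2 (0.65) and Spry2 (0.62), the genes whose products act at the membrane, rose by a similar amount. Thus 7 of 9 members rose and none fell, with a median of 0.65 against 0.03 over all genes, where 2.81% of genes were called higher. Dusp6 had 7603, 7641 and 7681, above its start in every library, but its difference of 0.36 (SE 0.07) stayed under the fold limit. Dusp2, with 35.1, 46.6 and 37.1, overlapped its start (0.28, SE 0.42).

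In GCSF the same hour brought calls for 5 of 9 members. Dusp5 rose 8.96-fold, from 281, 232 and 240 at GCSF 0h to 2130, 2256 and 2367 (3.16, SE 0.08). Dusp1 rose 5.61-fold to 1020, 1230 and 1264 (2.49, SE 0.14). Every 1h library stood several times above every GCSF 0h library for both genes. Dusp4 rose to 258, 275 and 298 (1.23, SE 0.20), Dusp6 to 5067, 5611 and 5837 (1.21, SE 0.07) and Spry1 to 1067, 1185 and 1170 (0.97, SE 0.12). These 5 of 9 were called, beside 4.01% of all genes called higher, with a member median of 0.97 against 0.00. Spry2 (0.46), Spred2 (0.46), Spred1 (0.35) and Dusp2 (0.51, 95% interval −0.31 to 1.34) were not called, although the libraries of each were all above their start.

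The 2 first-hour changes were compared through their interaction. It was called for Dusp5 (1.98, SE 0.12), Dusp1 (1.50, SE 0.19) and Dusp6 (0.85, SE 0.10), whose changes were larger in GCSF-OHT, so 3 of 9 members beside 1.58% of all genes called in that direction. For Dusp4 the difference of the changes was 0.26 with a 95% interval of −0.31 to 0.83, and for Spry1 it was 0.32 with an interval of −0.02 to 0.65. A larger change did not mean a higher level. At 1h Dusp1 was 4.67-fold and Dusp5 3.99-fold higher in IL3-OHT than in GCSF-OHT by the ratio of means, and the 1h level of Dusp1 in GCSF remained 2.36-fold below that of undifferentiated cells. Dusp6, at 5505 in GCSF-OHT and 7642 in IL3-OHT, came nearest between the courses among the 6 genes that were lower in GCSF at every shared time. Spry1 and Dusp2 were higher in GCSF-OHT at 1h than in IL3-OHT, by 1.60-fold and 5.10-fold.

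The promoter windows of the members, 250 bases before and 50 after the RefSeq start site on GRCm38.p6, could be read for 8 of the 10 genes. They are described because 7 of 9 members rose within the first hour in IL3-OHT and 5 of 9 in GCSF-OHT. Shown are the windows that hold the letters marked in capitals, those of Dusp1, Dusp5 and Spred2. Each is given as the 250 bases upstream of the start, 5′ to 3′ on the strand of the gene. Dusp1 and Dusp5 had the largest first-hour changes, and Spred2 did not. Capitals mark, in Dusp1, the palindromic cAMP response element (CRE) TGACGTCA, the letters bound by CREB and ATF proteins. In Dusp5 they mark, from the left, the letters of a PU.1 site (GAGGAAGT, here on the opposite strand) and a tandem pair of CArG boxes, the sequence bound by serum response factor. In Spred2 they mark the PU.1 letters on the opposite strand. In the GENCODE M21 annotation a longer transcript stretches the Dusp1 gene over chr17:26505590-26562128, so that its window lies inside the gene span, and the windows of Dusp5 and Spred2 lie at the 5′ ends of their genes.
Dusp1, chr17:26508473-26508722, minus strand: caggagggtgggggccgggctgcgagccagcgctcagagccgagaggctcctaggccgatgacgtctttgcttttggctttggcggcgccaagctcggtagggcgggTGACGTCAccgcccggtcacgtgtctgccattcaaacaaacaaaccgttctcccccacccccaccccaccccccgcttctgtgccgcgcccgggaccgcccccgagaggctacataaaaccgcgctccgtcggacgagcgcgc
Dusp5, chr19:53528895-53529144, plus strand: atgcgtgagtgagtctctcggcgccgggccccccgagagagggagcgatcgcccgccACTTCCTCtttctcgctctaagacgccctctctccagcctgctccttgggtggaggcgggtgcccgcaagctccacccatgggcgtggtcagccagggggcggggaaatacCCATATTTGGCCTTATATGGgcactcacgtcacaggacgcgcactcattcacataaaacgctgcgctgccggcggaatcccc
Spred2, chr11:19924192-19924441, plus strand: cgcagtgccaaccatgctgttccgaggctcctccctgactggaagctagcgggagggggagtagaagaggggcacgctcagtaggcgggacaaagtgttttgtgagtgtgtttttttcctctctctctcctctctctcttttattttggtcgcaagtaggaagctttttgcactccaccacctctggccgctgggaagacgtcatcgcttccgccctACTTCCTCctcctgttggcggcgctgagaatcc
The CRE of Dusp1 lay at −143 from the start (position of its first base) and is a motif held by 1.79% of 32851 promoter windows of this length. The CArG boxes of Dusp5 began at −82 and −72, directly next to each other, and 1.63% of windows hold at least 1. The PU.1 letters, beginning at −193 in Dusp5 and −33 in Spred2, occur on either strand in 3.2% of windows. Of the other motifs searched on both strands, the core TGACG (20.8% of windows), which is contained in the CRE, was found in Dusp1, Dusp2, Dusp5 and Spred2, and the ETS letters CCGGAA (14.9%) in Spry2. The AP-1 motif TGANTCA (7.81%), TATAAA (13.6%) and the STAT motif TTCNNNGAA (8.3%) were in none of the 8 windows. The windows of Dusp6, Spry1 and Spred1 held none of the motifs searched. Spry1 was called higher in the first hour of both courses, Spred1 in IL3-OHT and Dusp6 in GCSF-OHT. A match describes letters in this window and is not a measured site.

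The levels at 1h were followed to 4h. Between 1h and 4h of GCSF-OHT all 9 fell, beside 5.79% of all genes called lower, and the member median was −1.47 against −0.03. Spred2 fell most, from 1652, 1618 and 1644 to 316, 260 and 268 (−2.54, SE 0.09). Dusp1 returned to 223, 226 and 220 (−2.38) and Dusp4 to 45.8, 56.3 and 56.5 (−2.37), so that Dusp1 was just above its GCSF 0h libraries and Dusp4 below them. Dusp6 went to 1261, 1154 and 1304 (−2.15), below every GCSF 0h library. Dusp5 fell by 1.45 on the log2 scale to 820, 853 and 801 and was still above every GCSF 0h library. Dusp2 fell from 192.8, 223.7 and 188.97 to 76.6, 73.8 and 71.2 (−1.43, SE 0.42).

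In IL3-OHT 6 of 9 members fell between 1h and 4h, beside 18.1% of all genes called lower, with a median of −1.44 against −0.10. Dusp1 fell 6.47-fold to 914, 785 and 838 (−2.69), Spry2 4.03-fold to 318, 283 and 310 (−2.01) and Spred2 3.49-fold to 847, 850 and 807 (−1.80). Dusp5 (−1.73), Dusp4 (−1.44) and Dusp6 (−0.85) followed. At 4h all 6 stood below every undifferentiated library. Spry1, Spred1 and Dusp2 kept other courses. Spry1 had 710, 656 and 716 at 4h, overlapping its 1h libraries (−0.03, SE 0.12). Spred1 peaked at 2h with 2304.4 ± 196.02 (SD, n = 3) and was at 1496, 1789 and 1616 at 4h (−0.24, SE 0.09). Dusp2 had its highest mean at 8h, 47.4 ± 12.4 (SD, n = 3).

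**Figure D3:**
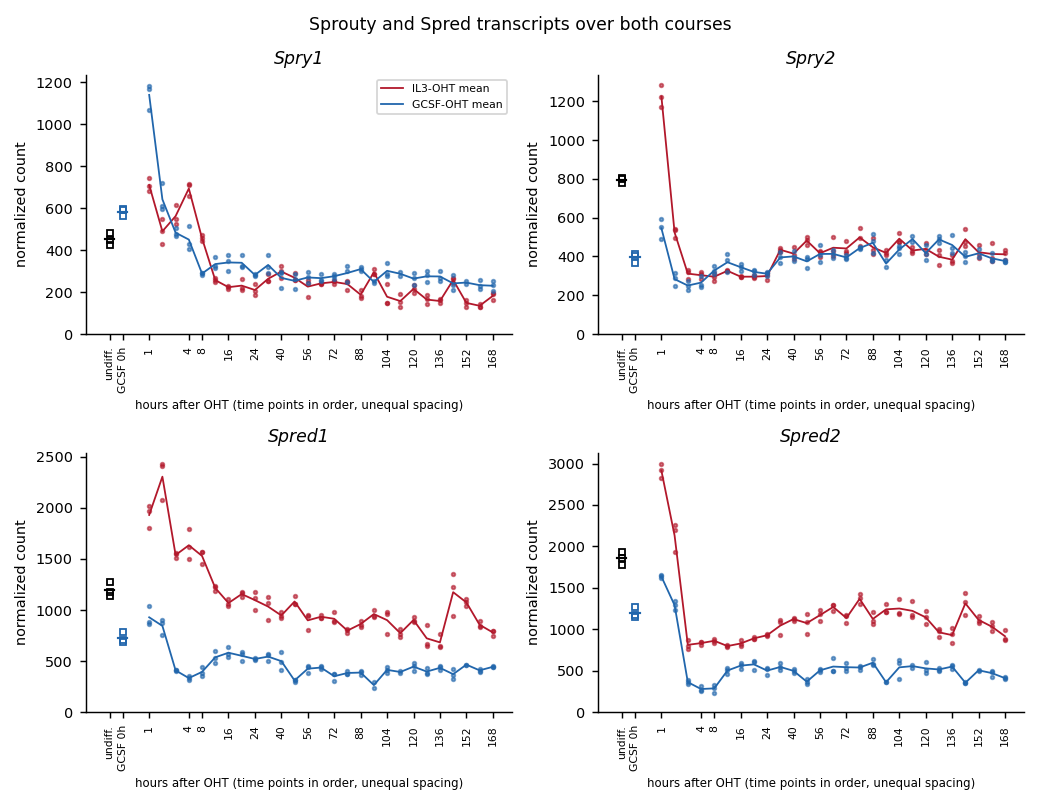
Normalized counts of Spry1, Spry2, Spred1 and Spred2 in each library (points) with group means (lines) in both courses, drawn as for the phosphatases. Spred1 and Spred2 were lower in GCSF-OHT at every shared time point, and the 2 courses of Spry2 crossed.

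Few members changed between 8h and 12h. In IL3-OHT 2 of 9 fell, beside 2.50% of all genes called lower. Spry1 went from 443, 471 and 456 to 268, 247 and 256 without overlap (−0.83, SE 0.12). Dusp2 went from 46.9, 59.97 and 35.2 to 18.5, 14.7 and 19.1 (−1.37, SE 0.42). Its call rested on single libraries, since it was −1.40 with an adjusted p of 0.0666 by limma without replicate 1 and −1.07 with 0.14 without replicate 2. In GCSF-OHT 2 of 9 rose, beside 2.25% of all genes called higher. Spred2 went from 333, 296 and 239 to 509, 537 and 467 (0.81, SE 0.09), and Dusp4 from 41.9, 27.6 and 40.2 to 55.2, 73.2 and 43.7 (0.63, SE 0.20). Without replicate 2 the Dusp4 difference was 0.25 and was not called.

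Between 24h and 32h Dusp1 was the only member called, and it was called in both courses. In IL3-OHT it had 447, 574 and 538 at 24h and 2341, 2478 and 2161 at 32h, a 4.49-fold rise (2.17, SE 0.14, adjusted p = 2.6e-27 by limma). In GCSF-OHT it had 168.7, 184.9 and 213.8 at 24h and 840, 712 and 689 at 32h, a 3.94-fold rise (1.98, SE 0.14, adjusted p = 3.4e-24). The 24h and 32h libraries were far apart in each course, and the higher level lasted. From 32h to 168h the means of Dusp1 ran from 1375 to 2327 in IL3-OHT and from 424 to 831 in GCSF-OHT, above those from 12h to 24h (486 to 542 and 189.1 to 357.5). 1 of 9 members was thus called, beside 0.322% of all genes (56) called higher in IL3-OHT and 0.155% (27) in GCSF-OHT. Dusp6, Spry2 and Spry1 were also above their 24h libraries without overlap in both courses, and Dusp4 and Dusp5 in IL3-OHT. Dusp6 differed by 0.52 and 0.45 and Spry2 by 0.54 and 0.34, with adjusted p under 0.05 and under the fold limit. For Dusp5, whose product also acts in the nucleus, the differences were 0.18 (95% interval 0.01 to 0.34) and −0.02 (−0.19 to 0.15).

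The 24h to 32h step falls between harvest without and with trypsin. Of 30 ERK-responsive transcripts tested, 12 rose in IL3-OHT and 9 in GCSF-OHT, among them Fosb (6.33 and 5.16), Fos (3.13 and 2.67) and Egr1 (3.12 and 3.66), while none of the list fell. A list of 7 harvest and heat stress genes summed to a median of 21276 at 24h and 19445 at 32h in IL3-OHT and to 21166 and 19041 in GCSF-OHT. Hspa8 made up most of these sums, with means of 17372.5 and 15880 in IL3-OHT and 16950 and 14796 in GCSF-OHT. The median log2 difference of the 7 genes was −0.13 in IL3-OHT and 0.03 in GCSF-OHT. For these 7 genes limma, edgeR and DESeq2 called 0 in either course, with 3 and 1 at an unadjusted p under 0.05. Of 14 other genes of the dual-specificity phosphatase family tested, these tools called 0, with 1 and 0 at an unadjusted p under 0.05. The part of trypsin in the Dusp1 step was not tested, and time and harvest cannot be told apart here.

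**Figure D4:**
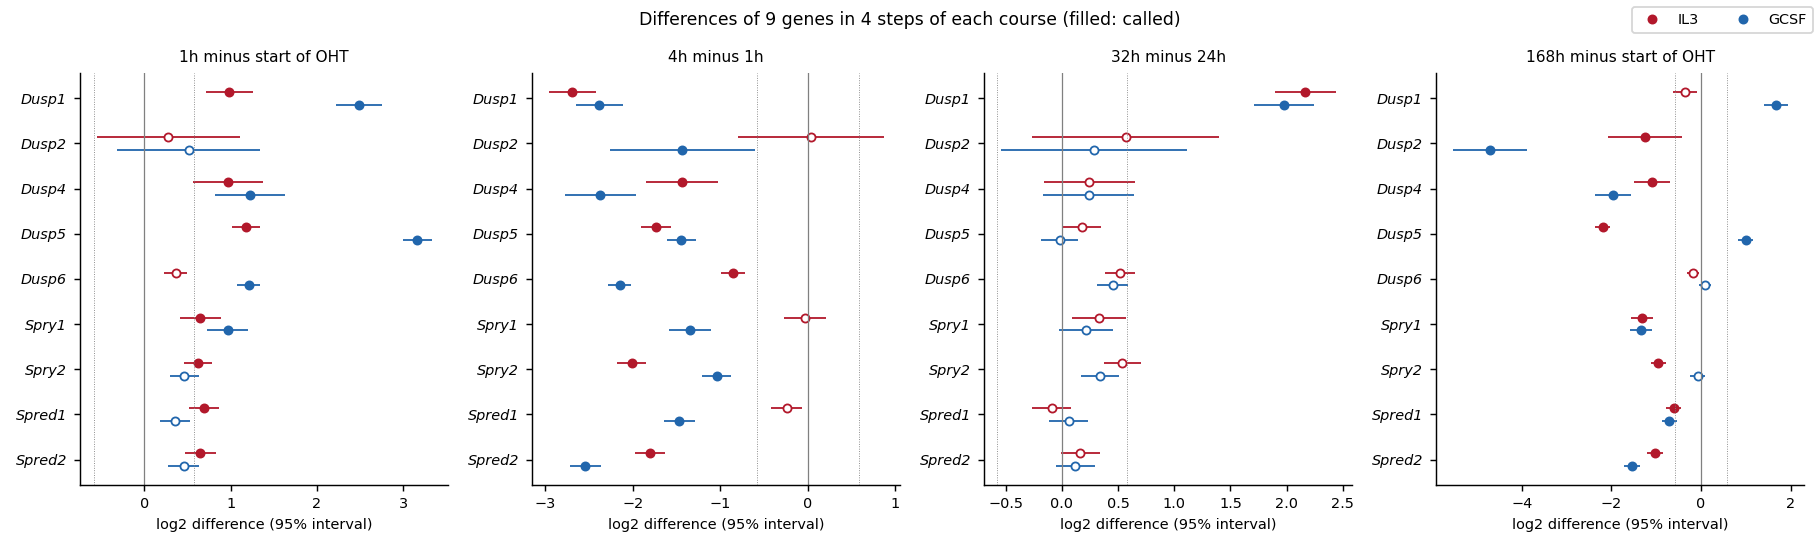
Log2 differences with 95% intervals of the 9 genes for 4 steps of each course. The steps are 1h against the start of OHT, 4h against 1h, 32h against 24h, and 168h against the start of OHT. The start of OHT is the undifferentiated group for IL3-OHT and GCSF 0h for GCSF-OHT. Filled symbols were called, and dotted lines mark the fold limit of 0.58. At 32h against 24h only Dusp1 is filled, at 2.17 and 1.98, and the other 8 genes lie between −0.09 and 0.57.

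GCSF-OHT and IL3-OHT libraries were then compared over the 25 shared time points. 6 of 9 members were lower in GCSF-OHT, beside 15.1% of all genes, and none was higher, with a median of −1.20 against −0.06. Dusp4 differed most (−2.83, SE 0.04), a mean difference of 7.09-fold. Dusp1 (−1.46), Dusp5 (−1.43), Dusp6 (−1.27), Spred1 (−1.20) and Spred2 (−1.06) followed. For each of these 6 genes, every GCSF-OHT library was below every IL3-OHT library at 25 of 25 time points. The ratio of means for Dusp4 ran from 2.85 at 20h to 18.7 at 136h, and that of Dusp6 from 1.39 at 1h to 3.41 at 4h.

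Dusp2, Spry1 and Spry2 did not share this order. Spry1, a membrane-side inhibitor, was higher in GCSF-OHT at 20 of the 25 time points, without overlap at 18, and its mean difference of 0.34 (SE 0.02) stayed under the fold limit. Spry2 was lower at 16 and higher at 9, with a mean difference of −0.10 (SE 0.02). Dusp2 was higher in GCSF-OHT at 10 time points and lower at 15, and its mean difference was −0.11 (95% interval −0.27 to 0.06). An average over the course therefore hid opposite differences for Dusp2.

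The courses were divided into 3 windows to follow this. From 1h to 8h, 6 members were lower in GCSF-OHT and Dusp2 was higher (1.17, SE 0.19), so 7 of 9 were called where 32.0% of all genes were. From 12h to 88h 6 members were lower and none higher, the same 6 genes, where 18.8% of all genes were called in either direction, and Dusp2 stood at −0.08 (95% interval −0.32 to 0.16). From 104h to 168h Dusp2 was also lower (−0.95, SE 0.15, and −0.58 with a pseudocount of 5) and Spry1 was higher in GCSF-OHT (0.67, SE 0.04), so 7 of 9 were lower and 1 higher, where 19.8% of all genes were lower and 14.3% higher. Dusp4 moved from −2.55 in the first window to −3.58 in the last, and Dusp1 from −2.03 to −1.29. No test of a change between windows was made. The last values of Dusp2 rest on few reads, with GCSF-OHT means of 2.61 to 5.65 from 104h on, at or near the 3-read limit.

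At 96h and 144h, 8 h after the medium was partly replaced, IL3-OHT libraries stood apart from their neighbours, and the authors left both times out of their analysis. Dusp5 measured 1520, 1572 and 1622 at 96h, against 779, 887 and 706 at the time point before (88h) and 1318, 1045 and 1117 at the next (104h), and no 96h library overlapped either neighbour (0.72, SE 0.07). Dusp4 had 480, 419 and 393, then 226, 208.6 and 179.4, then 306, 224 and 269 (−0.72, SE 0.18), and its 96h value overlapped only 104h. Spry1 was higher at 96h (0.70), as was Dusp2 (1.11, and 0.92 with an adjusted p of 0.0931 by limma without replicate 2). 4 of 9 members were called at 96h, where 17.5% of all genes were.

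At 144h Dusp5 measured 1810, 1673 and 1941, against 716, 673 and 825 just before (136h) and 1077, 1065 and 1042 just after (152h) (1.03, SE 0.07). Dusp6 reached its highest mean of the IL3 course, with 7964, 8068 and 8255, against 4196, 3923 and 4431 before and 6575, 6664 and 6393 after (0.63, SE 0.06). Spry1 was higher (0.75) and Dusp4 lower (−0.91), with Dusp4 at 945, 693 and 786 before, 188, 208.5 and 298 at 144h, then 224, 242 and 222. So Dusp5, Spry1 and Dusp4 were each called in the same direction at 96h as at 144h. The 144h libraries of Dusp4 overlapped those of 152h, so that it stood apart from 136h only. At 144h 4 of 9 members were called, where 15.4% of all genes were. Of all called genes 56.0% were higher at 144h, and 66.4% under upper-quartile scaling.

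The same times in GCSF-OHT gave other results. At 96h 5 of 9 members were lower than at the neighbouring times, beside 3.53% of all genes called lower. They were Dusp6 (1250 and 1187 at 96h, −0.87), Dusp4 (−0.83), Dusp1 (466 and 383, −0.75), Spred2 (−0.63) and Spred1 (−0.60), from 2 libraries. Spred2 lost its call without replicate 2 (−0.55) and Spred1 without replicate 3 (−0.56). Both 96h libraries were kept in these runs, which left out libraries of the neighbouring times. The weight of each 96h library was not tested. At 144h of GCSF-OHT limma called 0 of 9 members, 5 had an unadjusted p under 0.05, edgeR called 1 and DESeq2 0, where limma called 1.85% of all genes. Dusp5 had 572, 614 and 617 there, above 347, 350 and 386 before and 456 and 464 after, at 0.56 (SE 0.08) and just under the fold limit. At 48h, 8 h after the first replacement, limma called 0 of 9 in IL3-OHT, where 1.60% of all genes were called, with 3 at an unadjusted p under 0.05. In GCSF-OHT at 48h it called 0 of 9, where 0.379% of all genes were, with 5 at an unadjusted p under 0.05. edgeR and DESeq2 also called none at 48h. The part of the medium change in these values was not tested.

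Between replacements, Dusp4 in IL3-OHT climbed and then dropped back. Its mean went from 128 at 24h to 199 at 40h, then to 160 at 48h. It reached 431 at 88h before 204.7 at 96h, then 808 at 136h before 232 at 144h. Each of the 3 times at which medium was replaced thus had a higher mean than the next time point. Dusp5 showed the opposite order, with a mean of 791 at 88h before 1571 at 96h, then 738 at 136h before 1808 at 144h. In GCSF-OHT the mean of Dusp4 stayed between 17.7 and 43.6 from 32h on.

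At 168h most members were below their level in undifferentiated cells. In IL3-OHT 7 of 9 had fallen, beside 15.2% of all genes called lower, with a median of −1.02 against −0.03. Dusp5 had 825, 869 and 910, a 4.56-fold fall (−2.19, SE 0.08). Spry1 (190, 161 and 195.1, −1.31), Dusp4 (347, 282 and 321, −1.09), Spred2 (−1.02), Spry2 (−0.95) and Spred1 (−0.61) also fell without overlap. Dusp2 fell by 1.25 on the log2 scale, and by 0.87 with an adjusted p of 0.172 by limma without replicate 2. Dusp6 and Dusp1 ended closest to where they began and were not called. Dusp6 was at 4989, 5490 and 5294 (−0.18, 95% interval −0.31 to −0.04), and Dusp1 at 1870, 2262 and 2360 (−0.36, 95% interval −0.63 to −0.09), both below their start without overlap. Cell type markers moved in this comparison too, with 5 of 5 progenitor markers lower (median −2.29), 8 of 11 monocyte and macrophage markers higher and 2 lower (2.14), and 6 of 15 neutrophil markers higher and 4 lower (0.34). Their part in the members' values was not tested.

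In GCSF-OHT all 9 members were lower at 168h than in the same undifferentiated libraries, beside 23.6% of all genes called lower, with a median of −2.06 against −0.11. Dusp4 fell 22.1-fold to 35.4, 33.9 and 21.4 (−4.46, SE 0.20). Dusp5 (−2.98), Dusp2 (−2.63, and −1.99 with a pseudocount of 5), Spred2 (−2.17), Dusp1 (−2.06), Spred1 (−1.42), Dusp6 (−1.24), Spry2 (−1.08) and Spry1 (−0.97) completed the list. Part of this was in place before OHT. Against GCSF 0h, Dusp1 rose 3.17-fold to 707, 718 and 563 (1.67, SE 0.14) and Dusp5 2.00-fold to 523, 469 and 513 (1.00, SE 0.08). Dusp6, at 2599, 2484 and 2491, overlapped its GCSF 0h libraries (0.09, 95% interval −0.05 to 0.22), and so did Spry2 (−0.07, −0.23 to 0.10). Dusp2 fell to 2.95, 6.52 and 4.28, only 3 to 5 reads a library and near the 3-read limit, so that its difference depends on the pseudocount (−4.71 with 1 and −3.94 with 5). Dusp4 (−1.96), Spred2 (−1.53), Spry1 (−1.34) and Spred1 (−0.70) also fell. In all 7 of 9 members were called against GCSF 0h, where 24.8% of all genes were. Against undifferentiated cells 5 of 5 progenitor markers were lower at 168h of GCSF-OHT (median −2.36), 9 of 15 neutrophil markers were higher and 2 lower (2.17), and 4 of 11 monocyte and macrophage markers were higher and 2 lower (0.45), and their part was likewise not tested.

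The changes over 168h of OHT differed between the courses for 5 of 9 members, where 25.7% of all genes were called. The change was more positive in GCSF-OHT for Dusp5 (3.19, SE 0.12), Dusp1 (2.02, SE 0.19) and Spry2 (0.88, SE 0.12). It was more negative in GCSF-OHT for Dusp2 (−3.47, SE 0.59, and −2.89 with a pseudocount of 5) and Dusp4 (−0.87, SE 0.29). Dusp4 was no longer called without replicate 3 (−0.60, adjusted p = 0.229 by limma). For Spry1 and Spred1 the differences were −0.03 (95% interval −0.36 to 0.31) and −0.09 (−0.34 to 0.15). These contrasts carry the unequal starting levels, since GCSF 0h was already lower than the undifferentiated cells for 7 of the members.

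Over each whole course, any change from the start was called for 9 of 9 members in both, where 69.7% of all genes were called in IL3 and 62.5% in GCSF. The mean of Dusp2 in GCSF-OHT went from 201.8 at 1h to 2.61 at 144h, where its libraries held 2 or 3 reads, so that no fold is given. In IL3-OHT it was widest for Dusp5, 12.4-fold between 1h and 128h, and Dusp1, 11.7-fold between 1h and 8h. Dusp6 was the steadiest in IL3-OHT, 2.25-fold between 8h and 144h, and Spry2 in GCSF-OHT, 2.18-fold between 3h and 1h.

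The members did not follow a single course. Across the 54 group means of both courses, Pearson's r of log2 levels was highest for Dusp5 with Spred1 (0.86), Dusp6 with Spred2 (0.86), Dusp4 with Spred2 (0.85) and Dusp4 with Spred1 (0.85). It was −0.20 for Dusp1 with Spry1. The points share the scaling of the table and come from both cytokines, and pairs that were alike over both courses were not always so within one. Dusp4 with Spred1 gave 0.09 within IL3 and 0.80 within GCSF, and Dusp6 with Spred1 gave −0.28 and 0.64. Dusp1 with Spry2 gave 0.84 and 0.89 within the courses, above the 0.72 over both. Spry1 with Dusp2 gave 0.93 and 0.87, above 0.76 over both.

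**Figure D5:**
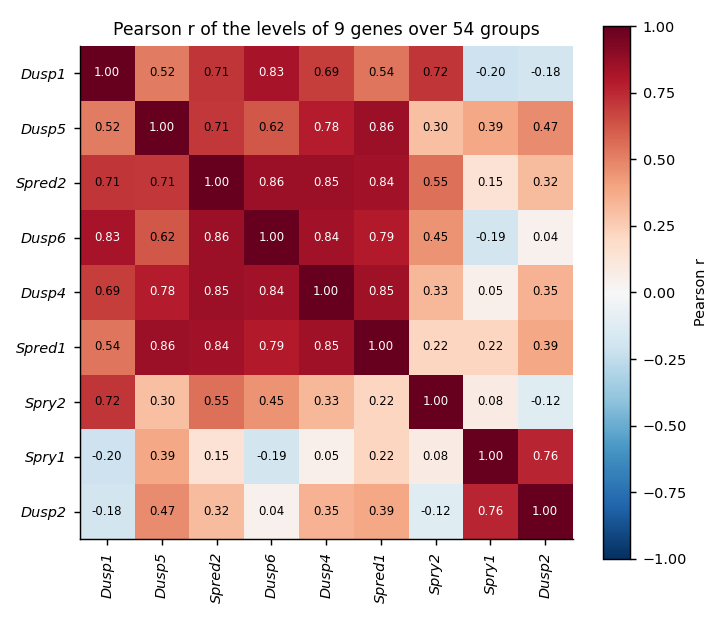
Pearson's r between the 9 genes over the 54 group means of log2(normalized count + 1), as a colour scale with the value in each cell. Dusp4, Dusp5, Dusp6, Spred1 and Spred2 have values of 0.62 to 0.86 with one another, and Spry1 has −0.20 with Dusp1 and 0.76 with Dusp2.

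Among 12298 genes with a mean of at least 10, those most like each member were named by the same r, as a description over 54 groups. Dusp1 was nearest to the immediate early factor Egr1 (0.91), the cytokine gene Osm (0.91) and the prostaglandin synthase gene Ptgs2 (0.87). Dusp6 was nearest to Casp8 (0.94), Fgf23 (0.93) and Egr2 (0.92). Spry2 was nearest to the clock gene Per2 (0.85), Csrnp1 (0.84) and Smad7 (0.84). The others were Glb1 for Dusp4 (0.97), Metrnl for Dusp5 (0.94), Shank3 for Dusp2 (0.91), Taf5l for Spry1 (0.93), Lrrc58 for Spred1 (0.94) and Casp8 for Spred2 (0.90).

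The rest of the pathway was described from lists. Since these were chosen with earlier results of these data known, their counts are a description and not a test. Of 25 transcripts of the RAS-ERK cascade itself (adaptors, RAS, RAF, MEK, ERK and ERK-activated kinases), limma, edgeR and DESeq2 called 0 at 1h in either course, with 12 in IL3-OHT and 6 in GCSF-OHT at an unadjusted p under 0.05. Of the 25, 2 were higher and none lower in GCSF-OHT over the shared time points, Rasgrp2 at 1.27, where 1627 of 17414 genes were higher and 2635 lower. With GCSF pre-treatment, where 2261 of all genes rose and 3600 fell, 2 of the 25 rose and 3 fell, with a median of −0.07 against −0.09 over all genes. Of 30 ERK-responsive transcripts, 26 fell and none rose with GCSF pre-treatment (median −1.99, Fosb −8.05). At 1h, 489 of all genes rose in IL3-OHT and 699 in GCSF-OHT. Of the 30, 13 rose and 1 fell in IL3-OHT, and 19 rose in GCSF-OHT (Fosb 6.99). Between 1h and 4h, 22 of the 30 fell in each course, where 3155 of all genes fell in IL3-OHT and 1008 in GCSF-OHT. Over the shared time points 19 of the 30 were lower in GCSF-OHT (median −0.76, Etv4 −3.62, Etv5 −3.34 and Egr1 −2.96). Of 20 other negative regulators of the pathway, 5 rose and 4 fell with GCSF pre-treatment, 3 rose at 1h in IL3-OHT, among them Spred3 (0.74), and 1 in GCSF-OHT, Spry3 (1.42).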

How the data were processed

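Bulk RNA-Seq of 165 libraries of PUER cells was used. Per the paper's methods, the authors mapped reads with Salmon to GRCm38 and divided the counts by DESeq2 size factors, so the deposited values are normalized counts, a signal. How transcripts were brought to genes, strandedness and tool versions are not given in the sources used here. Dividing each deposited value by the worth of 1 read in its library gave whole reads for 100% of them (tolerance 1e-06, largest relative deviation 9.66e-15). In 7 libraries the step lies too close to 1 for an automatic check.

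Groups came from the labels. The titles of the GCSF 0h libraries name OHT, while the treatment label and the methods place them before it. limma 3.58.1 (R 4.3.3) was run on log2(normalized count + 1) over 159 libraries in 54 groups, with a mean-variance trend, and over all 56 groups where IL3-OHT 96h or 144h was compared. A gene was tested if 1 or more libraries reached a normalized count of 5 (17414, or 17439 with all groups), with Benjamini-Hochberg adjustment over all of them. Alternatives were pseudocounts of 0.5 and 5, no filter, a mean of at least 10, upper-quartile scaling, each replicate left out, a replicate block, only the groups compared, edgeR 4.0.16 and DESeq2 1.42.0 on recovered reads, no 120h and another reference for the GCSF course. Replicates are wells of a plate, so p-values measure the spread between wells, which may be technical.

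The rule for naming took all 10 members in each comparison, at most the 3 called genes of largest change of each pathway list, and the 3 genes of most similar pattern for each member. Members and lists were chosen with earlier results of these data known. Promoter windows came from RefSeq (GRCm38.p6) and lengths from GENCODE M21. The test was tested on simulated data before use. Descriptions were made with Python 3.11.15, pandas 2.3.3, numpy 2.4.6 and matplotlib 3.10.9.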

Additional observations from a re-analysis of the deposited data

Results flagged for a closer look

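The start of OHT was GCSF 0h in GCSF-OHT and the undifferentiated cells in IL3-OHT. By a test of the interaction, the change from this start to 1h differed for Dusp1 (1.50 on the log2 scale), Dusp5 (1.98) and Dusp6 (0.85). Each change was larger in GCSF-OHT. The change between the start and 168h differed for Dusp5 (3.19), Dusp1 (2.02) and Spry2 (0.88), each more positive in GCSF-OHT, and for Dusp2 (−3.47) and Dusp4 (−0.87), each more negative there. The starting levels of these genes differed between GCSF 0h and undifferentiated cells, and the OHT doses differed too; their part was not tested.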

How the results depend on the processing

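Of the member values, 190 kept their call and direction under every alternative run. Of 2781 values under an alternative, 2749 kept both, 10 lost a call, 6 gained one and 16 changed sign, 0 of the 16 a called value, and 7 of the 112 called values lost their call when a replicate was left out. Members called at GCSF-OHT 12h against 8h went from 2 to 1 with a pseudocount of 5 or only the groups compared, and to 1 to 3 without a replicate. They were 1 to 2 at IL3-OHT 12h against 8h and 0 to 1 at GCSF-OHT 48h without a replicate. At GCSF-OHT 144h, 1 member (Spred2, −0.59) was called with upper-quartile scaling or edgeR and 0 to 2 without a replicate. As a percent of the genes of the main test, all genes called at IL3-OHT 32h against 24h (0.356) came to 0.58 without a filter, 0.718 with only the groups compared, 0.546 with DESeq2 and 0.218 to 0.419 without a replicate. GCSF-OHT 32h against 24h (0.172) gave 0.316 without a filter and 0.109 to 0.155 without a replicate, GCSF-OHT 48h (0.379) 0.241 with DESeq2 and 0.132 to 0.241, IL3-OHT 48h (1.60) 0.660 to 1.44, and GCSF-OHT 12h against 8h (2.67) 1.47 to 2.77. GCSF-OHT 144h (1.85) gave 1.10 with only the groups compared, and 1h to 8h (32.0) gave 20.9 with a mean of at least 10. Dusp2 over the shared time points was 0.014 with a pseudocount of 5. Without a replicate, values that crossed 0 ran, for Dusp2, from −0.15 to 0.48 (first-hour interaction), −0.12 to 0.31 (IL3-OHT 4h against 1h), −0.27 to 0.023 (12h to 88h) and −0.14 to 0.35 (IL3-OHT 48h). They ran for Dusp5 from −0.11 to 0.049 (GCSF-OHT 12h against 8h) and −0.070 to 0.053 (32h against 24h), for Spred1 from −0.18 to 0.025 (IL3-OHT 32h against 24h), and at IL3-OHT 96h for Spred2 from −0.0005 to 0.14 and for Dusp1 from −0.027 to 0.13. At GCSF-OHT 144h they ran for Dusp1 from −0.080 to 0.019 and for Spry1 from −0.25 to 0.021, at IL3-OHT 48h for Spry1 from −0.12 to 0.17, and in the 168h interaction for Spry1 from −0.13 to 0.083. The causes were not tested. With GCSF 0h as reference of the GCSF course 9 members were called. The library names at 120h of both courses begin with another prefix than all others, and its meaning is not given. Without 120h, 6 members were called over the shared time points. Replicate numbers did not pair the libraries (r of deviations −0.33 to 0.34, 1 of 36 above 0.1), and with the replicate block the count of members called was the same in every comparison, such as 8 with GCSF pre-treatment. Dusp2 in late GCSF-OHT and Spry4 are limited by depth.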

Other observations

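Genes of the dual-specificity phosphatase family outside the 10 genes also differed between the courses. Not all of those listed, Dusp11 and Styx among them, encode phosphatases of MAP kinases. Of 14 such genes tested, 8 fell and 1 rose with GCSF pre-treatment. Their median was −1.35 against −0.09 over all 17414 genes, of which 3600 fell and 2261 rose. Dusp10, whose product acts mainly on JNK and p38, went from 738 to 34.1 (−4.45, SE 0.23), Dusp18 from 1595 to 132 (−3.59, SE 0.13) and Dusp14 to 10.6 (−3.50, SE 0.40). At 1h of OHT, where 699 of all genes rose in GCSF-OHT and 489 in IL3-OHT, 6 of the 14 rose in GCSF-OHT, Dusp10 to 307 (3.18) and Dusp18 to 454 (1.78), and 2 rose and 1 fell in IL3-OHT. Over the shared time points, where 2635 of all genes were lower and 1627 higher in GCSF-OHT, 7 of the 14 were lower and none higher, with Dusp14 at −2.33 and Dusp10 at −1.99.

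Of 14 cytokine receptor and JAK-STAT feedback genes tested, 3 were higher and 4 lower in GCSF-OHT over the shared time points. Of all 17414 genes, 1627 were higher and 2635 lower there. The median was −0.14 for the 14 genes against −0.06 over all genes. Csf3r, which encodes the GCSF receptor, had a mean of 8011 in GCSF-OHT and 790 in IL3-OHT (3.35, SE 0.01). Socs1 and Cish, feedback inhibitors of the JAK-STAT pathway, had means of 49.2 against 542 (−3.45) and 1051 against 6956 (−2.76).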
